A study of Mus musculus with 5 samples.

Results

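The TNF superfamily ligands and TNF receptors described here are 10 genes chosen by name: the 8 ligand genes Tnf, Ltb, Tnfsf8, Tnfsf9, Tnfsf12, Tnfsf13, Tnfsf13b, and Tnfsf14, and the receptor genes Tnfrsf1a and Tnfrsf1b. All 10 were counted and tested, among 17058 genes with a count in any library and 12576 genes tested. RNA-Seq was performed on bone marrow–derived macrophages (BMDMs) of Balb/c mice, with 2 libraries from cocultures with WT 4T1 cells (WT cocultures) and 3 from cocultures with 4T1 ADAM17 knock-out 2.8 cells (Adam17-/- cocultures), all for 48 hours. The 4T1 line derives from a mammary carcinoma of the mouse, and no genetic change is given for the macrophages of either group. A single knock-out designation was used, so the loss of ADAM17 and other features of that line cannot be told apart. The study describes its BMDM donors in general as female WT mice several weeks old, and the labels give no age for these samples. Whether the repeats came from separate mice or cultures is not stated in the labels, so the p-values measure only the spread between these libraries. No macrophages cultured without cancer cells are among the samples.

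TNF superfamily ligands are made as membrane proteins that assemble in trimers, and many are cut from the cell surface or in the secretory pathway to act as soluble cytokines. TNF, the founding member, is a major inflammatory product of macrophages and is released by ADAM17, the protease deleted here in the cancer cells only. It binds TNFR1 (Tnfrsf1a), which is broadly expressed and carries a death domain, and TNFR2 (Tnfrsf1b), which lacks a death domain and binds TRAF adaptors. The remaining ligands mostly address lymphocytes, with BAFF (Tnfsf13b) and APRIL (Tnfsf13) acting on B cells and plasma cells, and CD30L (Tnfsf8) and CD137L (Tnfsf9) acting on T cells. LIGHT (Tnfsf14) and lymphotoxin beta (Ltb) share the lymphotoxin beta receptor, and TWEAK (Tnfsf12) acts through Fn14 (Tnfrsf12a).

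Tnf RNA fell by 61.3% in macrophages from Adam17-/- cocultures. RNA of the genes for its receptor TNFR1 and for the ligands CD137L and TWEAK was lower as well, whereas that of Tnfsf13, which encodes APRIL, rose by 36.2%. For secreted TNF protein, the study instead reports an increase in cocultures with knock-out cells, and calls it potentially compensatory. How the RNA and the protein relate was not tested. The Tnfsf13 call ended when counts of a gene that spans it were added (adjusted p = 0.0799 by edgeR), and that for Tnfsf12, the TWEAK gene, was lost in 7 of 13 other fits, with a log2 fold change of -0.18 without WT replicate 1. In edgeR's quasi-likelihood test with Benjamini-Hochberg adjustment over all genes tested, 4 of the 10 genes fell and 1 rose at an adjusted p of 0.05 or less. Among all genes tested, 16.8% fell, 14.9% rose, and 31.7% passed in either direction, so that a call by itself was common in this comparison. Tnf was the only 1 of the 10 that also changed by 2-fold or more, as did 4.22% of all genes tested. In normalized counts, the groups did not overlap for 7 of the 10 genes (5 lower and 2 higher in Adam17-/- cocultures), and for 58.1% of all genes tested. In FPKM, which is scaled to transcript length and library size, Tnfsf14 overlapped and Tnfrsf1b did not.

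The libraries held 14658694 to 20788373 counts, which puts a gene at 3 counts at 0.157 to 0.197 CPM, the limit that a count of 0 allows. CPM values are counts scaled to one common library total, with TMM factors that adjust each library for differences in composition. Such limits cover counting error only. Over all genes, the WT libraries differed more from each other (chi-square per degree of freedom 25.7) than the Adam17-/- libraries did (5.22 to 6.32), and less than libraries of different groups did (44.5 to 84.4). Adam17, intact in the macrophages, was at 197.5 and 199.6 CPM in WT cocultures and at 152, 164, and 160.5 CPM in Adam17-/- cocultures (log2 fold change -0.32, SE 0.0779, adjusted p = 0.0129 by edgeR). This call was lost in 7 of 13 other fits, among them those without any single Adam17-/- replicate, with library sizes alone, and with log2 FPKM, at adjusted p-values of up to 0.115. Because the deletion is in the cancer cells, which were not sequenced, Adam17 does not check the labels here. The 8 macrophage markers were all detected, and their summed level was 27650 to 28420 CPM in WT and 17950 to 19910 CPM in Adam17-/- cocultures, with 6 lower and 0 higher. The 10 markers of neutrophils and their precursors moved the other way, from 372 to 465 CPM to 1258 to 1444 CPM, with 9 higher. Of 8 dendritic cell markers, 6 were tested and 3 were higher, at a summed 14.1 to 21.4 CPM against 25.8 to 36.8 CPM. The 6 megakaryocyte and platelet markers, which include the chemokines Pf4 and Ppbp, summed to 2270 and 2390 CPM in WT and 1178 to 1318 CPM in Adam17-/- cocultures, with 4 higher and 2 lower. B cell markers summed to 1.84 to 4.74 CPM, and T and NK cell markers to 1.62 to 4.67 CPM with Cd3g and Trac at 0. Mast cell and basophil markers summed to 0.658 CPM or less with Tpsb2 and Cma1 at 0. Epithelial markers summed to at most 13.8 CPM with Krt5 at 0, and most of this was Cdh1, at 10.6 to 13.2 CPM. Each of these ranges covers both groups. The part of these shifts in any result given here was not tested, and in bulk RNA fewer cells of a type and less RNA per cell cannot be told apart.

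Of the 5 genes that passed, promoter sequence was at hand for Tnf, Tnfsf13, and Tnfrsf1a, and the 250 bases before each start site are shown, 5′ to 3′ on the strand of the gene, to set the letters beside the changes in level. The sequences are RefSeq's for GRCm38.p6, the reference genome and not that of the Balb/c mice used. They lie at chr17:35202008-35202257 (minus strand) for Tnf, chr11:69685555-69685804 (minus strand) for Tnfsf13, and chr6:125349473-125349722 (plus strand) for Tnfrsf1a. Capitals mark matches on either strand, where the motifs were spelled TATAAA for the TATA box and GAGGAAG for PU.1. The GC box was spelled GGGCGG, and the AP-1 motif was spelled TGANTCA.
Tnf: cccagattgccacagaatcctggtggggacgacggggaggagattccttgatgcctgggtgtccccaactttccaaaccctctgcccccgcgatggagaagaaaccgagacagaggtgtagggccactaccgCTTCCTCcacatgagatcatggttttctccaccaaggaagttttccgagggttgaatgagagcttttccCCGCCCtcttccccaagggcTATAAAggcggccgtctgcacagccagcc
Tnfsf13: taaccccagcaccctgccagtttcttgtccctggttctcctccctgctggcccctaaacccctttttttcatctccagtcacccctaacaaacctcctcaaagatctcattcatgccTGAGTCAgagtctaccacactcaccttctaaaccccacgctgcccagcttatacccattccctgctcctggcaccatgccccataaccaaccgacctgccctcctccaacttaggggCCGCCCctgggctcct
Tnfrsf1a: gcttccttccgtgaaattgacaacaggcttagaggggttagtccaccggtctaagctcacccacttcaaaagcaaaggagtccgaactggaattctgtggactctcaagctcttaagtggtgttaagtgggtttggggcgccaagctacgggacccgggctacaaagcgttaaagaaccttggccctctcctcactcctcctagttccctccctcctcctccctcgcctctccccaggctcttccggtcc
The Tnf window held a TATA box 29 to 24 bases before the start, a GC box 49 to 44 bases before it, and a PU.1 motif 118 to 112 bases before it. The Tnfsf13 window held an AP-1 motif 133 to 127 bases and a GC box 16 to 11 bases before the start. The Tnfrsf1a window held none of the motifs searched, which also included the NF-kB consensus. Of 32851 promoters of the same length, 12.4% held the TATA box, 10.6% the PU.1 motif, 32.7% the GC box, 6.75% the AP-1 motif, and 3.90% the NF-kB consensus. Among the 8 of the 10 genes with an entry, the NF-kB consensus was found only at Ltb, 87 to 78 bases before the start. Only these 250 bases and a single spelling of each motif were searched, so sites further upstream or spelled otherwise would be missed. A match is a description of the letters and not of a factor bound there.

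Tnf (chromosome 17, 35199367 to 35202007) was counted 588 and 392 times in the WT libraries and 177, 157, and 192 times in the Adam17-/- libraries. Normalized, these were 30.8 and 21.2 CPM against 9.69, 10.3, and 10.2 CPM, with means of 26.0 ± 6.76 (SD, n = 2) and 10.1 ± 0.333 (SD, n = 3). All 3 Adam17-/- libraries lay below both WT libraries, and they differed less among themselves than the WT pair did. The log2 fold change of Tnf was -1.37 (SE 0.155, 95% interval -1.72 to -1.02, adjusted p = 0.000559 by edgeR). The fall held with each of 13 other fits, with log2 fold changes from -1.62 to -1.08.

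Tnfrsf1a (chromosome 6, 125349723 to 125362483), the TNFR1 gene, was at 229 and 194.5 CPM in WT and 147, 142, and 146 CPM in Adam17-/- cocultures. The groups did not overlap, and Tnfrsf1a fell by 31.7% (log2 fold change -0.55, SE 0.0894, adjusted p = 0.00234 by edgeR), again in each of the 13 other fits. Tnfrsf1b (chromosome 4, 145212368 to 145246870), the TNFR2 gene, had the highest CPM of the 10, with 467 and 412 CPM in WT and 413, 453, and 427 CPM in Adam17-/- cocultures. These values overlapped, and the log2 difference was -0.03 (95% interval -0.23 to 0.17, adjusted p = 0.833 by edgeR). Its sign turned in 7 of the 13 other fits. Among them were fits with other scalings, where the median over all genes was higher as well. Within a library, TNFR2 transcripts per TNFR1 transcript, as a ratio of FPKM (fragments scaled by the authors to transcript length and library size), were 0.889 and 0.926 in WT and 1.23, 1.395, and 1.28 in Adam17-/- cocultures. Tnfrsf1b thus made up 47.1% and 48.1% of the FPKM of both receptors in WT cocultures and 55.15%, 58.25%, and 56.1% in Adam17-/- cocultures. Unlike its CPM, the FPKM of Tnfrsf1b did not overlap, at 88.4 and 81.7 in WT and 89.3, 96.9, and 91.1 in Adam17-/- cocultures.

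**Figure D1:**
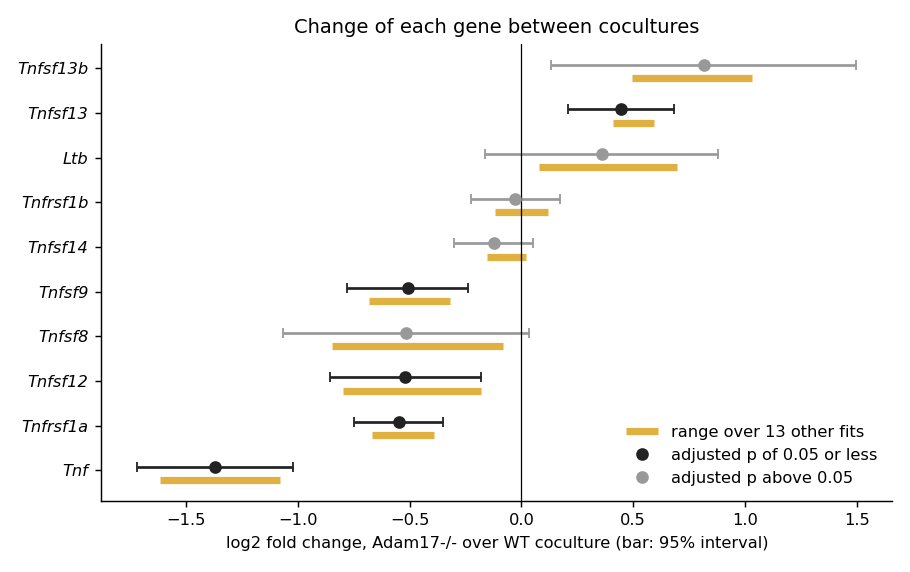
Log2 fold change of each of the 10 genes (rows), Adam17-/- over WT coculture, from edgeR, with 95% intervals; black points have an adjusted p of 0.05 or less, gray points do not, and yellow bars give the range over 13 other fits. Tnf lies furthest below 0 at -1.37, and the yellow bars of Tnfrsf1b and Tnfsf14 cross 0.

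Tnfsf9 (chromosome 17, 57105287 to 57107758), which encodes the T cell costimulatory ligand CD137L, was at 71.85 and 55.9 CPM in WT and 42.5, 42.8, and 49.2 CPM in Adam17-/- cocultures. Every Adam17-/- library was below both WT libraries (log2 fold change -0.51, SE 0.120, adjusted p = 0.0118 by edgeR). The log2 fold change of Tnfsf9 was -0.32 without WT replicate 1, and the adjusted p was 0.0618 without Adam17-/- replicate 1 and 0.0558 without Adam17-/- replicate 2. Tnfrsf9, which encodes its receptor CD137, was low, at 2.04 and 3.19 CPM in WT, and rose to 4.32, 3.82, and 4.61 CPM (log2 fold change 0.71, SE 0.229, adjusted p = 0.0418 by edgeR). The call for Tnfrsf9 was lost without WT replicate 1, without any single Adam17-/- replicate, and in DESeq2, with adjusted p-values over all alternatives of up to 0.213.

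Tnfsf12 (chromosome 11, 69686240 to 69696098) and Tnfsf13 (chromosome 11, 69682577 to 69685554) are neighboring genes, and moved in opposite directions. TWEAK transcripts from Tnfsf12 were at 104 and 67.7 CPM in WT and 61.0, 59.7, and 58.9 CPM in Adam17-/- cocultures. Those of Tnfsf13, which encodes APRIL, were at 19.4 and 18.8 CPM in WT and 26.05, 28.0, and 24.0 CPM in Adam17-/- cocultures. Neither gene overlapped between groups, although WT replicate 1 stood well above the other 4 libraries for Tnfsf12. The log2 fold change was -0.52 for Tnfsf12 (SE 0.150, adjusted p = 0.0271 by edgeR) and 0.45 for Tnfsf13 (SE 0.106, adjusted p = 0.0122 by edgeR). Without WT replicate 1, Tnfsf12 was at -0.18 with an adjusted p of 0.0893, and the call was also lost without any single Adam17-/- replicate, at adjusted p-values of 0.0811 to 0.0864. The rise of Tnfsf13 passed in each of the 13 other fits.

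Counts of both genes were not whole numbers, since the annotation also holds Tnfsfm13, a gene that spans the pair (chromosome 11, 69682577 to 69696098) and shares their sequence. Tnfsfm13 itself was given 188 and 226 counts in WT and 191, 125, and 179 counts in Adam17-/- cocultures (log2 fold change -0.23, adjusted p = 0.275 by edgeR). With these counts added to Tnfsf13, its log2 fold change was 0.24 and no longer passed (adjusted p = 0.0799 by edgeR), and with them added to Tnfsf12, its log2 fold change was -0.48 (adjusted p = 0.0218 by edgeR). The split of reads among the 3 genes is therefore uncertain. Of the summed counts for Tnfsf12 and Tnfsf13, Tnfsf12 held 84.3% and 78.2% in WT and 70.05%, 68.0%, and 71.05% in Adam17-/- cocultures. Tnfsf13 was the only 1 of the 10 genes listed with more than 1 transcript, and NM_001159505 held 51.1% to 77.2% of its counts with no separation of the groups.

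Tnfsf13b (chromosome 8, 10006229 to 10036000), which encodes BAFF, was the lowest of the 10, with 24 and 30 counts in WT and 56, 26, and 52 counts in Adam17-/- cocultures. At 1.26 and 1.62 CPM against 3.07, 1.71, and 2.75 CPM, the groups did not overlap, but Adam17-/- replicate 2 lay close to the WT libraries. The log2 difference of 0.82 had a 95% interval of 0.13 to 1.498 and an adjusted p of 0.0673 by edgeR. Without Adam17-/- replicate 2 it was 1.03 and passed (adjusted p = 0.0350 by edgeR). Among the shared receptors of BAFF and APRIL, Tnfrsf13b (TACI) fell from 6.18 and 5.36 CPM to 3.78, 3.55, and 3.76 CPM (log2 fold change -0.64, SE 0.164, adjusted p = 0.0167 by edgeR). The call for Tnfrsf13b was lost without WT replicate 1, without any single Adam17-/- replicate, and in DESeq2, with adjusted p-values over all alternatives of up to 0.0719. Tnfrsf13c, the BAFF receptor, was too low to test, and Tnfrsf17, the plasma cell receptor BCMA, was at 0 in all 5 libraries.

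Tnfsf14 (chromosome 17, 57189474 to 57194181), which encodes LIGHT, was at 87.4 and 90.8 CPM in WT and 82.4, 81.4, and 81.3 CPM in Adam17-/- cocultures. The groups did not overlap, but the log2 difference of -0.12 did not pass (95% interval -0.30 to 0.05, adjusted p = 0.248 by edgeR) and was 0.02 with library sizes alone. Ltb (chromosome 17, 35194507 to 35196305), lymphotoxin beta, was at 7.22 and 4.71 CPM in WT and 7.77, 9.41, and 5.93 CPM in Adam17-/- cocultures. Its libraries overlapped, and its log2 difference of 0.36 (95% interval -0.16 to 0.88, adjusted p = 0.265 by edgeR) was 0.08 without WT replicate 2 and 0.69 without WT replicate 1. Their common receptor gene Ltbr fell from 139.5 and 110 CPM to 85.0, 86.6, and 88.2 CPM (log2 fold change -0.53, SE 0.104, adjusted p = 0.00541 by edgeR), in this and each of the 13 other fits. Tnfrsf14, the HVEM gene and a second receptor of LIGHT, was at 15.2 to 20.6 CPM over all libraries, with a log2 difference of -0.10 (adjusted p = 0.587 by edgeR).

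Tnfsf8 (chromosome 4, 63831202 to 63861508), which encodes CD30L, was at 6.28 and 3.68 CPM in WT and 3.07, 3.36, and 4.02 CPM in Adam17-/- cocultures. The groups overlapped, and the log2 difference of -0.52 did not pass (95% interval -1.07 to 0.03, adjusted p = 0.136 by edgeR). It rested on WT replicate 1, since it was -0.08 without that library and -0.85 without WT replicate 2 (adjusted p = 0.00811 by edgeR). Tnfrsf8, the CD30 gene, was too low to test, and Tnfrsf12a, the TWEAK receptor Fn14, was at 3.17 to 6.41 CPM over all libraries with a log2 difference of 0.05 (adjusted p = 0.911 by edgeR). For all of the 10 genes other than Tnfsf13b and Tnfsf14, WT replicate 1 had a higher CPM than WT replicate 2.

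Per transcript length, the receptors led the order in both groups. In WT cocultures the means were 93.8 FPKM for Tnfrsf1a and 85.1 FPKM for Tnfrsf1b, which overlapped at the level of single libraries. Tnfsf9 at 51.5, Tnfsf12 at 49.3, and Tnfsf14 at 46.5 FPKM came next and could not be ordered beyond their spread. Tnf at 15.3, Tnfsf13 at 11.1, Ltb at 5.29, Tnfsf8 at 2.155, and Tnfsf13b at 0.825 FPKM followed with no overlap between neighbors. In Adam17-/- cocultures Tnfrsf1b stood first at 92.45 FPKM, above Tnfrsf1a at 71.1 FPKM without overlap. Tnfsf14 followed at 47.2 FPKM, ahead of Tnfsf9 at 40.2 and Tnfsf12 at 38.3 FPKM, which overlapped. Tnf, at 6.60 FPKM, came after Tnfsf13 at 16.8 FPKM and overlapped Ltb at 7.61 FPKM, and Tnfsf8 at 1.68 FPKM overlapped Tnfsf13b at 1.59 FPKM.

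**Figure D2:**
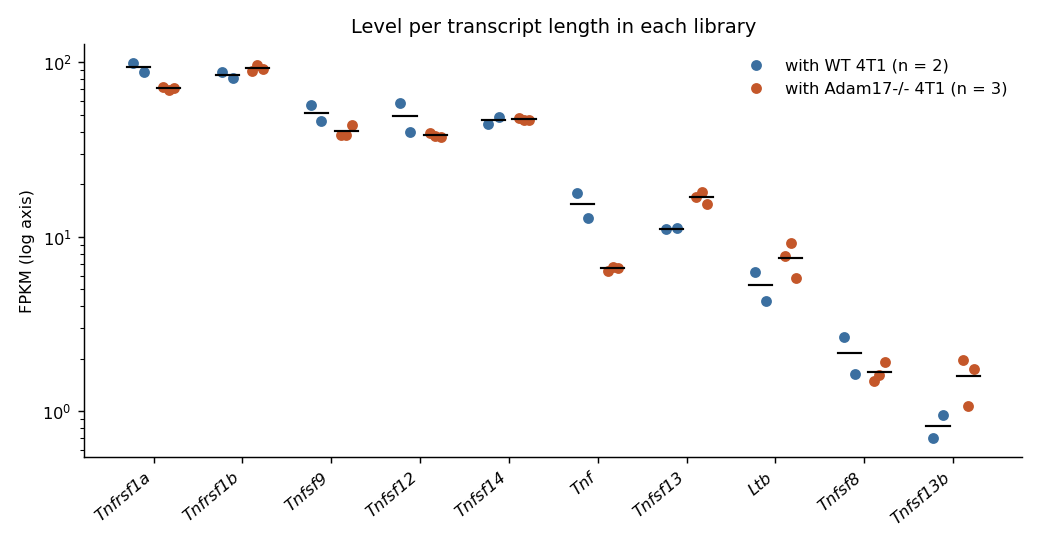
FPKM of each gene (log axis) in each library, with WT cocultures (n = 2) in blue, Adam17-/- cocultures (n = 3) in orange, and black bars at the group means. Tnf falls from a mean of 15.3 to 6.60 FPKM and drops below Tnfsf13, which is at 16.8 FPKM in Adam17-/- cocultures.

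Ratios within single libraries are given for 4 pairs, which were chosen with the values of the genes known, so that their separation is a description. Tnf transcripts per Ltb transcript were 2.835 and 3.00 in WT and 0.829, 0.729, and 1.14 in Adam17-/- cocultures. Tnf transcripts per TNFR1 transcript were 0.179 and 0.146 in WT and 0.0883, 0.0973, and 0.0932 in Adam17-/- cocultures. Tnfsf13 transcripts per Tnfsf12 transcript were 0.1885 and 0.281 in WT and 0.432, 0.475, and 0.412 in Adam17-/- cocultures. These ratios, and that of the TNF receptors given above, do not depend on the scaling between libraries, but the ratio of Tnfsf13 to Tnfsf12 rests on the uncertain split of reads with Tnfsfm13.

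**Figure D3:**
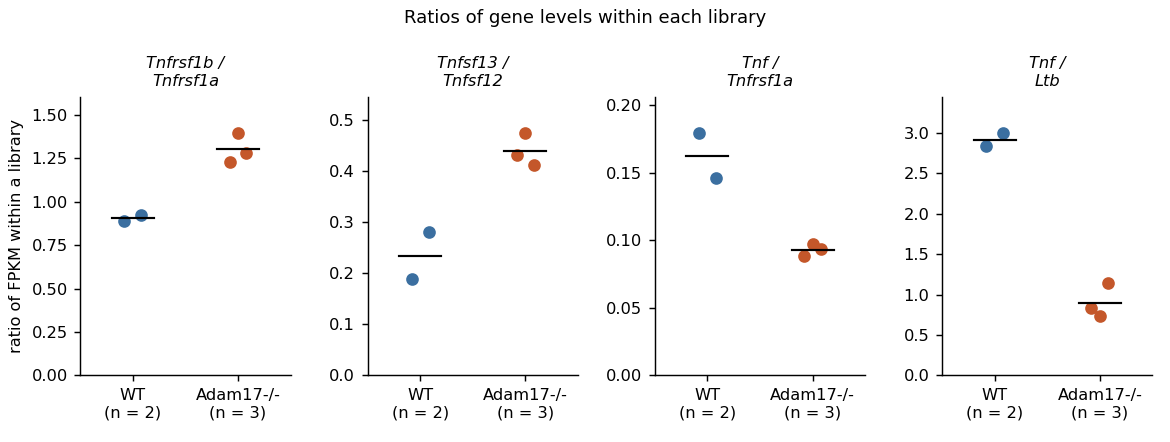
Ratio of FPKM within each library for 4 gene pairs, with WT cocultures (n = 2, blue) and Adam17-/- cocultures (n = 3, orange) and black bars at the means. The Tnf to Ltb ratio is 2.835 and 3.00 in WT and at most 1.14 in Adam17-/- cocultures.

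Other members of the families moved in both directions. Of 10 further ligands, only 3 passed the filter on low counts (Lta, Tnfsf10, and Tnfsf15), and 0 changed by edgeR at an adjusted p of 0.05 or less, with 0 at an unadjusted p under 0.05 and 0 called by DESeq2. With library sizes alone, Tnfsf10, the TRAIL gene, passed (adjusted p = 0.0452). Lta, whose product joins lymphotoxin beta, was at 0.583 to 1.31 CPM over all libraries. Of 26 further receptors, 18 were tested, 4 rose, and 4 fell, beside 14.9% and 16.8% of all genes tested. Their median log2 fold change was -0.06, beside 0.01 over all genes tested. Its sign turned without WT replicate 1 (0.14) and without Adam17-/- replicate 2 (0.09). It also turned with library sizes alone (0.09) and the FPKM scales (0.07 and 0.06), among other fits. Over all genes the median rose as well, to 0.16 with library sizes alone and 0.16 and 0.11 with the FPKM scales. With library sizes alone, 7 of the 18 rose and 4 fell, while 3019 of all genes rose and 1077 fell. In DESeq2, 2 of the 18 rose and 3 fell, while 1581 of all genes rose and 1893 fell. Besides Ltbr and Tnfrsf13b, the genes that fell were Tnfrsf21, which encodes the death receptor DR6, at -0.45 (adjusted p = 0.00399 by edgeR) and Tnfrsf11a, which encodes RANK, the receptor of the osteoclast factor RANKL, at -0.48 (adjusted p = 0.00756 by edgeR). Besides Tnfrsf9, the genes that rose were the TRAIL receptor genes Tnfrsf10b at 0.35 (adjusted p = 0.0474 by edgeR), Tnfrsf22 at 0.37 (adjusted p = 0.0229 by edgeR), and Tnfrsf26, a related receptor gene, at 0.36 (adjusted p = 0.00910 by edgeR). The calls for Tnfrsf26 and Tnfrsf22 were lost without Adam17-/- replicate 1, that for Tnfrsf22 also without WT replicate 1 or Adam17-/- replicate 3, and that for Tnfrsf10b whichever library was left out, with adjusted p-values over all alternatives of up to 0.103, 0.1004, and 0.176. The call for Tnfrsf11a was lost with both FPKM scales, at adjusted p-values over all alternatives of up to 0.0628. With 1 Adam17-/- library left out, 0 of these receptors rose without replicate 1, 2 without replicate 2, and 1 without replicate 3, and 3 fell each time. Over all genes, 1869 higher and 2114 lower became 1089 and 926, 1240 and 1168, and 1208 and 1237 in these fits. Of the 10 receptors known for the 8 ligands, 7 were tested, 1 rose (Tnfrsf9), and 3 fell (Tnfrsf1a, Ltbr, and Tnfrsf13b). In DESeq2, 0 of the 7 rose and 2 fell, and the edgeR counts were the same without WT replicate 1 or any single Adam17-/- replicate.

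Inside the cell, TNF receptors assemble adaptors, kinases, and ubiquitin enzymes that switch on NF-kB. Of 32 such genes, all tested, 6 rose and 2 fell, beside 31.7% called in either direction over all genes, and the median log2 fold change was 0.00. The counts moved with single libraries, with 1 higher and 0 lower without Adam17-/- replicate 1, 2 and 1 without replicate 2, and 3 and 1 without replicate 3. Over all genes, 1869 higher and 2114 lower became 1089 and 926, 1240 and 1168, and 1208 and 1237 in these fits. Birc2, which encodes the ubiquitin ligase cIAP1, rose from 26.9 and 29.8 CPM to 46.1, 45.85, and 44.8 CPM (log2 fold change 0.68, SE 0.0916, adjusted p = 0.00103 by edgeR), in this and each of the 13 other fits. The IkB kinase genes Chuk and Ikbkb rose by 0.38 (adjusted p = 0.0161) and 0.29 (adjusted p = 0.0185) on the log2 scale, and Spata2, which recruits the deubiquitinase CYLD, fell by 0.44 (adjusted p = 0.00862), all by edgeR. The calls for Chuk, Ikbkb, and Spata2 were lost without Adam17-/- replicate 1, those for Ikbkb and Chuk also without replicates 2 and 3, respectively, and that for Spata2 also with both FPKM scales, with adjusted p-values over all alternatives of up to 0.0883, 0.156, and 0.0612.

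Of 9 genes for ligand-releasing proteases and their partners, 1 rose and 3 fell, beside 31.7% called in either direction over all genes, with a median log2 fold change of -0.18. Furin, the convertase that cuts APRIL, BAFF, and TWEAK and also activates ADAM17, fell from 573 and 445.5 CPM to 363, 376.5, and 377 CPM (log2 fold change -0.45, SE 0.107, adjusted p = 0.0116 by edgeR). Rhbdf2, which encodes iRhom2, the partner that brings ADAM17 to the macrophage surface, fell by 0.49 on the log2 scale (adjusted p = 0.0188), and Timp3, an inhibitor of ADAM17, rose by 0.72 (adjusted p = 0.0423), both by edgeR. Adam17 was the third gene that fell, with the losses given above. The calls for Furin and Rhbdf2 were lost without Adam17-/- replicate 1, that for Rhbdf2 also without replicate 3, and that for Timp3 without WT replicate 1 or Adam17-/- replicates 2 or 3, with adjusted p-values over all alternatives of up to 0.0594, 0.0894, and 0.182. Over the 13 other fits, log2 fold changes ranged from -0.63 to -0.26 for Furin, -0.72 to -0.22 for Rhbdf2, and 0.43 to 1.02 for Timp3. With library sizes alone, 1 of the 9 fell, beside 1077 of all genes. With both FPKM scales the calls for Furin, Rhbdf2, and Adam17 were lost. With 1 library left out, 0 fell without Adam17-/- replicate 1, 1 without replicate 3, 2 without replicate 2, and 4 without either WT replicate, while over all genes the number that fell ranged from 926 to 2940. The median was -0.12 without WT replicate 1 and -0.29 without WT replicate 2.

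Of 11 regulators of Tnf mRNA stability and translation, 3 rose and 2 fell, beside 31.7% called in either direction over all genes, with a median log2 fold change of 0.20. Map3k8, a kinase needed for TNF production, rose from 19.8 and 18.3 CPM to 43.2, 36.25, and 37.9 CPM (log2 fold change 1.04, SE 0.111, adjusted p = 0.000465 by edgeR). Tia1, a translational silencer that binds Tnf mRNA, rose from 38.7 and 43.2 CPM to 74.1, 72.9, and 67.6 CPM (log2 fold change 0.80, SE 0.0930, adjusted p = 0.000598 by edgeR). Rc3h2, a roquin that promotes decay of Tnf mRNA, rose by 0.47 on the log2 scale (adjusted p = 0.0310), and Mapkapk2, a kinase that stabilizes Tnf mRNA, fell by 0.34 (adjusted p = 0.0108), both by edgeR. The calls for Map3k8 and Tia1 held in each of the 13 other fits. Those for Rc3h2 and Mapkapk2 were lost without Adam17-/- replicate 1 or replicate 3. The Rc3h2 call was also lost without WT replicate 1 or Adam17-/- replicate 2, with log2 fold changes of 0.22 to 0.75 over all alternatives. With library sizes alone, 6 of the 11 rose and 0 fell by edgeR, while 3019 of all genes rose and 1077 fell. With 1 Adam17-/- library left out, 0 fell without replicate 1 or replicate 3 and 1 fell without replicate 2. Over all genes, the number that fell went from 2114 to 926, 1237, and 1168 in these fits, in the order replicates 1, 3, and 2. The median was 0.11 without WT replicate 1, 0.03 without WT replicate 2, and 0.14 to 0.25 without an Adam17-/- replicate. The Mapkapk2 call was also lost with library sizes alone and with both FPKM scales.

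Of 18 genes that TNF is known to induce through NF-kB, 16 were tested, 0 rose, and 8 fell, beside 14.9% and 16.8% of all genes tested, and the median log2 fold change was -0.28. Cxcl1, Cxcl2, and Ccl2 are chemokine genes, and the study drew attention to chemokines in these libraries, so this list is not independent evidence of a direction. The chemokine Ccl2, which attracts monocytes, went from 192.5 and 133 CPM to 19.8, 35.5, and 36.2 CPM (log2 fold change -2.42, SE 0.231, adjusted p = 0.000352 by edgeR). The neutrophil attractants Cxcl2 and Cxcl1 fell by 0.99 (adjusted p = 0.000900) and 1.19 (adjusted p = 0.00535) on the log2 scale, and the cytokine gene Il1b by 0.60 (adjusted p = 0.00163), all by edgeR. These 4 calls held in each of the 13 other fits. With library sizes alone, the list had 1 gene higher and 5 lower, while 3019 of all genes were higher and 1077 lower. The other genes that fell, named after their values were seen, were Nfkb1, Nfkb2, Bcl3, and Sod2, but their calls were lost in 9, 5, 9, and 7 of the 13 other fits, respectively, among them the fits without Adam17-/- replicate 1 and without replicate 3 for all of these genes. With 1 library left out, the number of genes that fell was 4 without Adam17-/- replicate 1 or replicate 3, 5 without replicate 2, 6 without WT replicate 1, and 12 without WT replicate 2. Over all genes, the number that fell moved too, from 2114 to 926, 1237, 1168, 2183, and 2940 in these fits, in the order Adam17-/- replicates 1, 3, and 2 and WT replicates 1 and 2. The median of the list was -0.18 without WT replicate 1 and -0.37 without WT replicate 2. Nfkbia, Nfkbie, Nfkbiz, Relb, Tnfaip2, Icam1, Ier3, and Ptgs2 were tested and did not pass, at log2 differences of -0.27 to 0.10. The list leaves out Tnfaip3, Birc3, Traf1, and Cflar, which were placed with the adaptors. These did not pass by edgeR, at 0.16, -0.01, 0.27, and -0.08 on the log2 scale.

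**Figure D4:**
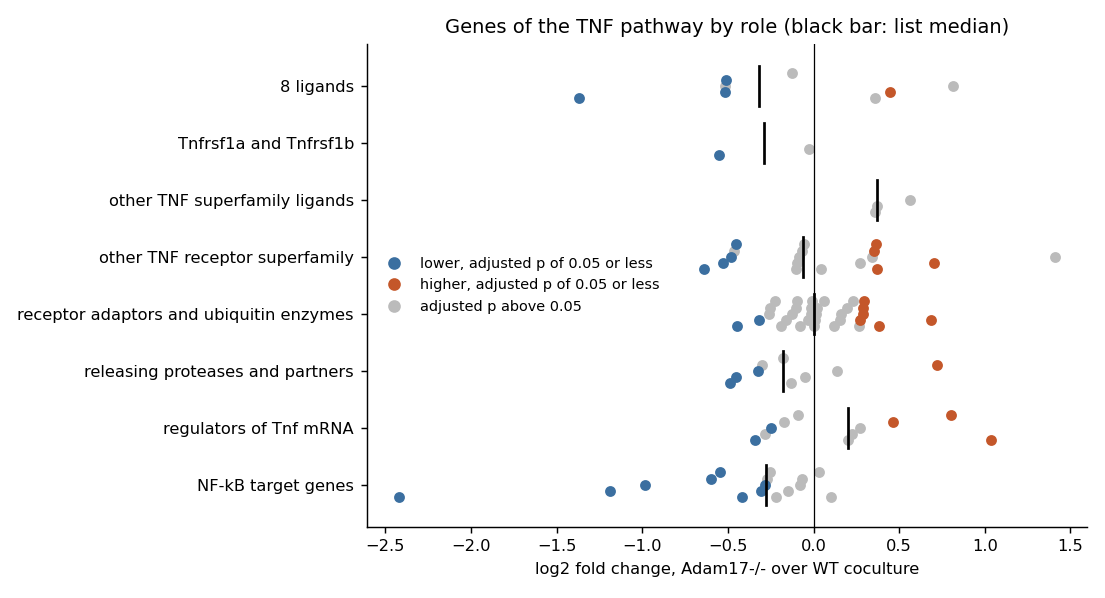
Log2 fold change (Adam17-/- over WT coculture, edgeR) of each tested gene in the ligands, receptors, and pathway lists, with blue points lower and orange points higher at an adjusted p of 0.05 or less, gray points above it, and black bars at the list medians. All 8 called NF-kB target genes lie below 0, down to -2.42 for Ccl2, while receptors and adaptors lie on both sides.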

How the data were processed

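Poly(A) RNA of 5 BMDM samples was sequenced, and groups were taken from the sample titles. Each deposited table listed transcripts with their expected count, which is unnormalized. A second deposited column held FPKM, which the authors scaled to transcript length and library size. The study's methods name alignment to GRCm38 with HISAT and quantification with Bowtie2, whereas the submitters' processing notes name Bowtie2, Bowtie, RSEM, DESeq2, and mm10; versions are not given in the sources used here. The lowest FPKM listed was 0.01, and genes absent from a library were taken as 0 counts. Whether counting used strand is not stated, so reads of a gene and an antisense partner cannot be told apart.

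The expected counts of a gene's transcripts were added and then rounded. Symbols were matched for 17015 of 17058 gene IDs, and 16.0% to 16.8% of gene sums per library were not whole within 0.005, as for 2 of the 10 genes. The main test was edgeR 4.0.16 in R 4.3.3 (TMM, filterByExpr, glmQLFit, glmQLFTest, no covariates), and p-values were adjusted by Benjamini-Hochberg with a limit of 0.05 for calls. CPM values are TMM normalized, and FPKM values were summed per gene. Library totals of 14658694 to 20788373 counts limit what can be seen of low genes. Alternatives were DESeq2 1.42.0, other scalings, limma 3.58.1 on log2(FPKM + 0.1) and log2(FPKM + 1), other filters and call rules, the replicate number as a block, and each library left out. The code was tested on simulated data. All 10 genes were named, with every receptor of the 8 ligands and every other ligand or receptor that passed. Of each further list, at most 4 genes were named by adjusted p. The other tested NF-kB targets and the adaptor genes Tnfaip3, Birc3, Traf1, and Cflar were named after their values were seen. The 10 genes and the lists were chosen with earlier results of these data known. Motifs were searched in RefSeq promoters of GRCm38.p6.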

Additional observations from a re-analysis of the deposited data

How the results depend on the processing

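Of 130 values of the 10 genes under the 13 other fits, 107 kept their direction and side of the threshold, 9 kept the direction but no longer passed, 4 newly passed, and 10 changed sign. Leaving out a WT replicate assumes that the lone WT library varies like the Adam17-/- libraries, which the larger difference between the WT libraries (chi-square per degree of freedom 25.7 against 5.22 to 6.32) goes against, so p-values without a WT replicate may be too small. Tnfsf14, at -0.12, was at 0.0212 with library sizes alone, 0.0224 with log2(FPKM + 0.1), and 0.0219 with log2(FPKM + 1). Tnfrsf1b, at -0.03, was at 0.0289 with upper quartile factors, 0.12 with library sizes alone and with both FPKM scales, and, by the library left out, 0.0605 without WT replicate 1, 0.0232 without Adam17-/- replicate 1, and 5.3e-05 without Adam17-/- replicate 3. Neither gene passed in these fits.

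The 1 gene higher among the 10 became 2 with library sizes alone and with no filter (Tnfsf13b in both), 0 with a limit of 1 on the absolute log2 fold change, 0 with an adjusted p under 0.001 and an absolute log2 fold change over 0.25, and 1 to 2 with a library left out. The 4 genes lower became 1 under either of these rules and 2 to 5 with a library left out. Among all genes tested, 1869 were higher, against 3019 with library sizes alone, 422 and 132 under the 2 call rules, and 1089 to 2460 with a library left out. The 2114 lower became 1077 with library sizes alone, 970 and 967 with log2(FPKM + 0.1) and log2(FPKM + 1), 109 and 179 under the call rules, and 926 to 2940 with a library left out. Over all genes, the median log2 fold change was 0.01 with TMM, 0.07 with upper quartile factors, 0.16 with library sizes alone, and 0.16 and 0.11 with the FPKM scales, and 46.9% of calls were higher with TMM against 57.9%, 73.7%, 74.1%, and 73.7%. Relative to these medians, the falls of Tnf and Tnfrsf1a and the rise of Tnfsf13 stayed on the same side of 0 in every fit. Outside the TMM fits the Tnfsf12 call was lost with library sizes alone (adjusted p = 0.0763) and with both FPKM scales (adjusted p = 0.121 and 0.122), and it was lost in 7 of the 13 fits in all. The cause of these differences was not tested.

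The groups share replicate numbers, but deviations of same-numbered libraries correlated at -0.124 and -0.0504, so the numbers were not taken as pairs. With a replicate block, 1 of the 10 genes was higher and 4 were lower, and 1216 and 1126 of all genes were higher and lower. The same block left 1 adaptor gene higher and 1 lower (6 and 2 without it), 0 and 2 further receptors (4 and 4), 0 and 2 receptors of the ligands (1 and 3), 0 and 2 proteases and partners (1 and 3), 3 and 0 regulators of Tnf mRNA (3 and 2), and 0 and 4 NF-kB targets (0 and 8), all by edgeR. Whether depth kept genes at few counts, such as Tnfsf13b, from passing was not tested.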
